A study of Ovis aries with 24 samples.

Results

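A2M, which encodes the secreted protease inhibitor alpha-2-macroglobulin, and LRP1, which encodes a cell-surface receptor that takes it up, are followed here as 2 genes of the 27054 features counted in cultured sheep pituitary cells. Both were taken by gene name from the count tables, as ENSOARG00000000950 (A2M) and ENSOARG00000007332 (LRP1). A2M was chosen by its measured counts, because it was both abundant and much higher in sorted than in unsorted cells. LRP1 was taken with it as its receptor. The sorted against unsorted fold changes of both are therefore given as a description with no test. The single exception, a test of whether that of LRP1 differed between replicate sets, was added after the values were seen. The effects of estradiol (E2) were not used in that choice and are tested. The cells came from ovariectomized Western white faced ewes and were infected, 24 hours after dispersal, with an adenovirus built so that green fluorescent protein (GFP) is expressed in gonadotropes, the cells that secrete luteinizing and follicle-stimulating hormone. After 3 days the cultures received ethanol (vehicle) or 10 nM E2 for 6 hours. The 24 RNA-seq libraries cover cells sorted for GFP and unsorted cells, each with vehicle and with E2, and replicates 1 to 6 make up each of the 4 groups. All 4 groups therefore share the ovariectomy, the culture and, as far as the labels tell, the virus. The sources used here do not say how many animals contributed, whether pituitaries were pooled, or whether libraries with the same number share a culture, so the p-values measure the spread between these libraries.

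Alpha-2-macroglobulin is a large secreted protein that traps proteases of every mechanistic class. A protease that cuts its bait region springs a cage around itself, an internal thioester bond can link the protease to the cage, and the changed shape exposes a site that LRP1 recognises. The inhibitor also binds growth factors and cytokines, among them members of the transforming growth factor beta family. LRP1 is a large endocytic receptor of the low-density lipoprotein (LDL) receptor family that clears protease complexes, matrix proteins and lipoprotein particles. It needs a chaperone in the endoplasmic reticulum, LRPAP1, and is cut by furin on its way to the surface. The liver is the main source of plasma alpha-2-macroglobulin, and many other tissues make it locally.

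Counts summed to between 4.19 and 6.19 M reads in replicates 1 to 3 and to between 19.2 and 37 M reads in replicates 4 to 6 of every group. The labels name no batch, and the depth sets are treated as possible batches. The sort is visible in the markers: 5 of 5 tested gonadotrope genes were higher in sorted than in unsorted vehicle libraries. Of all genes 24.4% were called higher in that comparison. The summed level of the gonadotrope list ranged from 2494 to 5636 CPM in sorted against 292 to 1324 CPM in unsorted libraries. CGA, the glycoprotein hormone alpha subunit, averaged 2796 ± 757 CPM (SD, n = 6) after the sort and 416 ± 169 CPM without it, in vehicle libraries. CPM are counts scaled to a common library total, here with library sizes adjusted by the trimmed mean of M values (TMM). They are not divided by gene length, so levels of different genes are not compared.

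A2M was high in every sorted library and lower in every unsorted one. In sorted vehicle replicates 1 to 6 it stood at 4868, 2480, 5683, 7145, 8910 and 6066 CPM. In unsorted vehicle replicates 1 to 6 it stood at 855, 532, 505, 1037, 1117 and 576 CPM. The lowest sorted library, replicate 2, lay above the highest unsorted library, replicate 5, so the groups did not overlap. This restates the choice of A2M. The share of all genes that separated as fully is not given, and 50.2% were called in this comparison. The means were 5858 ± 2165 CPM (SD, n = 6) and 770 ± 270 CPM, and edgeR estimated a log2 fold change of 2.91 ± 0.29 (SE), or 7.53-fold. The same-numbered ratios ran from 4.66 in replicate 2 to 11.2 in replicate 3. A2M reads made up 0.235% to 0.826% of all counts in a sorted vehicle library and 0.0502% to 0.112% in an unsorted one.

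The same separation was present under E2. In sorted E2 replicates 1 to 6 A2M stood at 5221, 2804, 5180, 6293, 7175 and 6081 CPM. In unsorted E2 replicates 1 to 6 it stood at 846, 480, 458, 808, 1053 and 478 CPM. Again every sorted library exceeded every unsorted one, with the same limits, and replicate 2 was again the lowest of the sorted libraries. The log2 fold change was 2.98 ± 0.27 (SE), or 7.89-fold. Within replicates 1 to 3 and 4 to 6 the sort difference was 2.74 and 3.04 on the log2 scale in vehicle, and 2.90 and 3.09 in E2 libraries, so it had the same direction and a similar size at both depths.

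Few genes that were abundant in sorted libraries were as much higher there. Of 54 genes with a mean of at least 1000 CPM in sorted vehicle libraries, A2M had the largest fold change, ahead of CGA (2.74), LHB (2.06), which encodes the beta subunit of luteinizing hormone, TIMP1 (1.61), a metalloproteinase inhibitor, and SCG2 (1.49), a secretory granule protein. Among all 14468 genes tested, 14 had a larger fold change than A2M (0.0968%), and 50.2% were called at an adjusted p under 0.05 (24.4% higher and 25.8% lower in sorted cells). These ranks restate the choice of A2M and carry no test. The 54 genes were picked by their sorted level alone, so genes abundant only in unsorted cells were left out. In bulk RNA, more cells of a type and more RNA per cell cannot be told apart.

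**Figure D1:**
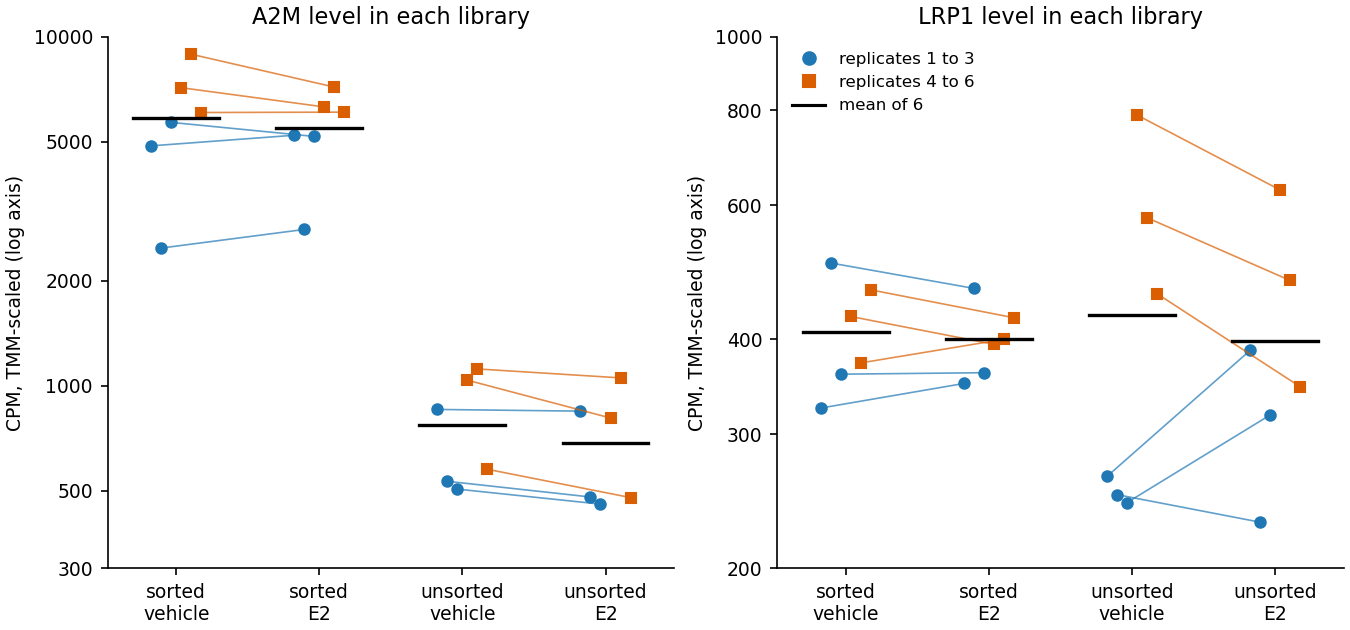
A2M (left) and LRP1 (right) in each of the 24 libraries, as TMM-scaled CPM on log axes that do not start at 0; lines join E2 and vehicle libraries of the same number, circles are replicates 1 to 3, squares are replicates 4 to 6 and black bars are means of 6. Every sorted A2M value (2480 CPM or more) lies above every unsorted one (1117 CPM or less), a difference for which A2M was chosen. LRP1 overlaps among all 4 groups and splits by replicate set in unsorted vehicle libraries.

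Other cell types moved with the sort as well, and their part in the A2M difference was not tested. Of 10 tested fibroblast and pericyte markers 6 were lower and 1 higher in sorted vehicle libraries, and the summed level of the list ran from 832 to 1822 CPM in sorted against 4267 to 11200 CPM in unsorted libraries. Of 7 tested folliculostellate and stem cell markers 5 were lower and 2 higher (2214 to 2979 against 4807 to 6277 CPM). The higher ones were S100B (means of 37.4 against 23.1 CPM) and ALDH1A1 (1392 against 930.5 CPM). A sum follows its most abundant members, here VIM among the lower ones (976 against 4050 CPM). Of 8 endothelial markers 5 were lower (17.1 to 40.7 against 32.0 to 72.1 CPM), and of 6 macrophage and leukocyte markers 2 were lower and 1 higher (13.7 to 21.6 against 16.8 to 33.7 CPM). Somatotrope, lactotrope, corticotrope and thyrotrope lists held 2 of 3, 3 of 3, 2 of 4 and 2 of 3 tested members that were higher in sorted libraries and 0 that were lower. TRHR stands in both the lactotrope and the thyrotrope list. In the same order the sums ran from 9271 to 94390, 67690 to 178000, 318 to 778 and 299 to 1243 CPM in sorted vehicle libraries. In unsorted vehicle libraries they ran from 5631 to 50170, 39170 to 90710, 134 to 255 and 164 to 386 CPM. With the replicate block the counts of higher members became 3 of 3, 3 of 3, 4 of 4 and 3 of 3. Fibroblast and pericyte markers then had 7 lower, and endothelial markers had 1 higher beside 5 lower. Over all genes 24.4% were called higher and 25.8% lower without the block, and 32.5% and 31.1% with it. Of 4 tested hepatocyte genes 1 was lower, and with the block 1 was higher and 1 lower. Their list summed to 37.8 to 83.3 against 53.3 to 99.7 CPM. The highest level of each gene in any library is given next, with no comparison between genes. Albumin (ALB) reached at most 0.742 CPM in any library, TTR 0.535, FGA 0.0532, AHSG 1.49 and SERPINC1 2.56 CPM. FGB reached 18.6, APOA1 39.3 and TF 61.9 CPM. No marker in any of these lists was at 0 in all 24 libraries.

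LRP1 showed no such separation. In sorted vehicle replicates 1 to 6 it stood at 325, 504, 360, 429, 372 and 465 CPM. In unsorted vehicle replicates 1 to 6 it stood at 264, 250, 244, 789, 578 and 459 CPM. The sorted libraries thus lay between the low unsorted replicates 1 to 3 and the high unsorted replicates 4 and 5, and the groups overlapped. Sorted libraries averaged 409 ± 68.3 CPM (SD, n = 6) and unsorted ones 431 ± 222 CPM, with a log2 fold change of -0.08 ± 0.27 (SE). Under E2 the sorted values in replicates 1 to 6 were 350, 467, 361.5, 394, 400 and 427 CPM. The unsorted E2 values were 387, 230, 318, 629, 478 and 346.5 CPM, and the log2 fold change was 0.00 ± 0.19 (SE). The order of the group means, unsorted vehicle, sorted vehicle, sorted E2 (399.8 ± 42.9 CPM) and unsorted E2 (398 ± 139 CPM), held no neighbours that differed beyond their spread.

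The near-zero mean difference for LRP1 covered opposite signs in the depth sets. In vehicle libraries LRP1 was 0.63 ± 0.12 (SE) higher on the log2 scale in sorted cells in replicates 1 to 3, and its fold change was -0.52 ± 0.17 (SE) in replicates 4 to 6. The same-numbered ratios were 1.23, 2.02 and 1.48 in replicates 1 to 3 and 0.543, 0.644 and 1.01 in replicates 4 to 6. LRP1 was not chosen on its own values, and a test of that difference between the sets, added after the values were seen, gave -1.22 ± 0.28 log2 (SE, edgeR adjusted p = 0.019), in a test where 5.9% of genes were called. It was -1.17 ± 0.25 with the replicate number as a block (adjusted p = 0.0186, with 10.3% of genes called). Leaving out 1 library at a time moved the edgeR adjusted p between 0.00347 and 0.0577, and dropping replicate 4 (0.0501) or 5 (0.0577) of the sorted or replicate 3 (0.0537) of the unsorted vehicle libraries ended the call. In E2 libraries the difference between the sets was -0.60 ± 0.31 (SE), which did not pass (edgeR adjusted p = 0.409, with 5% of genes called).

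The unsorted vehicle libraries were where the sets stood apart. Unsorted vehicle libraries averaged 253 ± 10.3 CPM (SD, n = 3) in replicates 1 to 3 and 609 ± 167 CPM in replicates 4 to 6, without overlap. A test within each group was added after this split had been seen, so in this group it restates the observation with an error and is no independent support. The deeper set was higher by 1.28 ± 0.19 log2 (SE, edgeR adjusted p = 0.00355, a test in which 31.8% of genes were called), and the call was kept without any 1 of the 6 libraries (adjusted p from 0.00234 to 0.0199). In unsorted E2 libraries the sets averaged 311.5 ± 78.6 and 484 ± 141 CPM and overlapped, with a difference of 0.64 ± 0.26 log2 (SE, edgeR adjusted p = 0.0965, with 33% of genes called). The sorted libraries gave differences of 0.03 ± 0.17 in vehicle and 0.00 ± 0.12 in E2 libraries, with edgeR adjusted p = 0.919 and 0.999 (12.3% and 15.5% of genes called). Medians of several marker lists differed with this split in unsorted vehicle libraries, given here for replicates 1 to 3 and then 4 to 6. In every list the ranges of the sets overlapped, and these differences were not tested. The summed fibroblast and pericyte level had a median of 6068 CPM (4267 to 7635) and then 8450 CPM (7462 to 11200). That of gonadotrope markers had a median of 505.5 CPM (292 to 738) and then 894.5 CPM (491 to 1324), and that of somatotrope markers 12650 CPM (9702 to 19500) and then 25760 CPM (5631 to 50170). The medians of corticotrope (228.5 and 159 CPM), thyrotrope (351 and 264 CPM), endothelial (69.6 and 46.4 CPM), folliculostellate and stem cell (6016 and 4830 CPM), hepatocyte (80.2 and 55.5 CPM) and lactotrope lists (72490 and 65220 CPM) were lower in replicates 4 to 6, and that of macrophage and leukocyte markers was near the same (26.9 and 28.1 CPM). Depth differs between the sets by definition, and the part of these measures in the LRP1 difference was not tested. A2M differed between the sets by 0.54 ± 0.29 log2 in unsorted vehicle and 0.70 ± 0.30 in sorted vehicle libraries, and neither passed (edgeR adjusted p = 0.189 and 0.161).

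Per library, the reads counted for A2M over those for LRP1 gave a ratio of 14.9 ± 6.14 (SD, n = 6) in sorted vehicle, 13.9 ± 4.11 in sorted E2, 1.99 ± 0.719 in unsorted vehicle and 1.76 ± 0.438 in unsorted E2 libraries. The lowest sorted ratio, 4.92, exceeded the highest unsorted ratio, 3.24. A2M was chosen for its sort difference, so the separation of this ratio between sorted and unsorted libraries restates that choice. The ratio also depends on the lengths of both genes, so its size cannot be read.

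The next comparisons asked whether 6 hours of E2 changed either gene. In sorted cells A2M was higher under E2 in 3 of 6 same-numbered pairs and lower in 3, with ratios from 0.805 to 1.13. The edgeR log2 fold change was -0.10 ± 0.26 (SE; 95% interval -0.67 to 0.47; adjusted p = 1), in a comparison where 1.37% of 14334 genes were called. With the replicate number as a block it was -0.06 ± 0.06 (interval -0.18 to 0.07; adjusted p = 0.64), with 13.2% of genes called. By set the blocked fold change was 0.05 ± 0.05 in replicates 1 to 3 (interval -0.05 to 0.16; edgeR adjusted p = 0.735) and -0.17 ± 0.06 in replicates 4 to 6 (interval -0.30 to -0.05; unadjusted p = 0.0115, edgeR adjusted p = 0.102). None of these fits called A2M, and the difference between the sets did not pass (-0.21 ± 0.09 log2 with the block, edgeR adjusted p = 1).

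In unsorted cells A2M was lower under E2 in 6 of 6 pairs, by 0.02 to 0.36 on the log2 scale. Without a block the fold change was -0.17 ± 0.26 log2 (SE; interval -0.72 to 0.39; edgeR adjusted p = 1), in a comparison where 0.245% of 15083 genes were called. With the block A2M fell by 0.17 ± 0.05 log2 (SE; edgeR adjusted p = 0.0316), where 5.24% of genes were called, 2.86% higher and 2.37% lower. That call was lost when number 3, 4 or 6 was left out (adjusted p = 0.0851, 0.168 and 0.176 by edgeR) and kept without number 1, 2 or 5 (0.0213, 0.0499 and 0.0276). By set the blocked fold change was -0.10 ± 0.06 in replicates 1 to 3 (edgeR adjusted p = 0.897, where 0.502% of genes were called). It was -0.23 ± 0.06 in replicates 4 to 6 (edgeR adjusted p = 0.043, where 4.59% were called). The call in replicates 4 to 6 was lost without number 4 (0.435) or 6 (0.433) and kept without number 5 (2.23e-08). The difference between the sets did not pass (edgeR adjusted p = 0.993 with the block). A 2-sided exact sign-flip test of the 6 pairs gave p = 0.0312, the smallest 6 pairs allow, and 0.125 after adjustment over 4 such tests.

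For LRP1 the E2 fold change in sorted cells was -0.03 ± 0.11 log2 (SE; interval -0.27 to 0.21; edgeR adjusted p = 1), with 3 pairs higher and 3 lower. In unsorted cells it was -0.12 ± 0.31 log2 (interval -0.79 to 0.55; edgeR adjusted p = 1), with 2 pairs higher and 4 lower. The block left both uncalled (-0.02 ± 0.04 and -0.06 ± 0.16 log2; edgeR adjusted p = 0.804 and 0.932). Unsorted replicates 1 and 3 were the pairs that were higher under E2, and all 3 pairs of replicates 4 to 6 were lower. Taken alone with the block, replicates 4 to 6 gave a fall of 0.33 ± 0.05 log2 (SE; edgeR adjusted p = 0.002, where 4.59% of genes were called), and the call was lost without number 4 (0.0711) or 6 (0.14). Replicates 1 to 3 gave 0.28 ± 0.10 log2, which was not called (edgeR adjusted p = 0.471, where 0.502% of genes were called). The difference between the sets was -0.61 ± 0.14 log2 with the block and was not called (edgeR adjusted p = 0.758), in a test that called 0 genes.

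**Figure D2:**
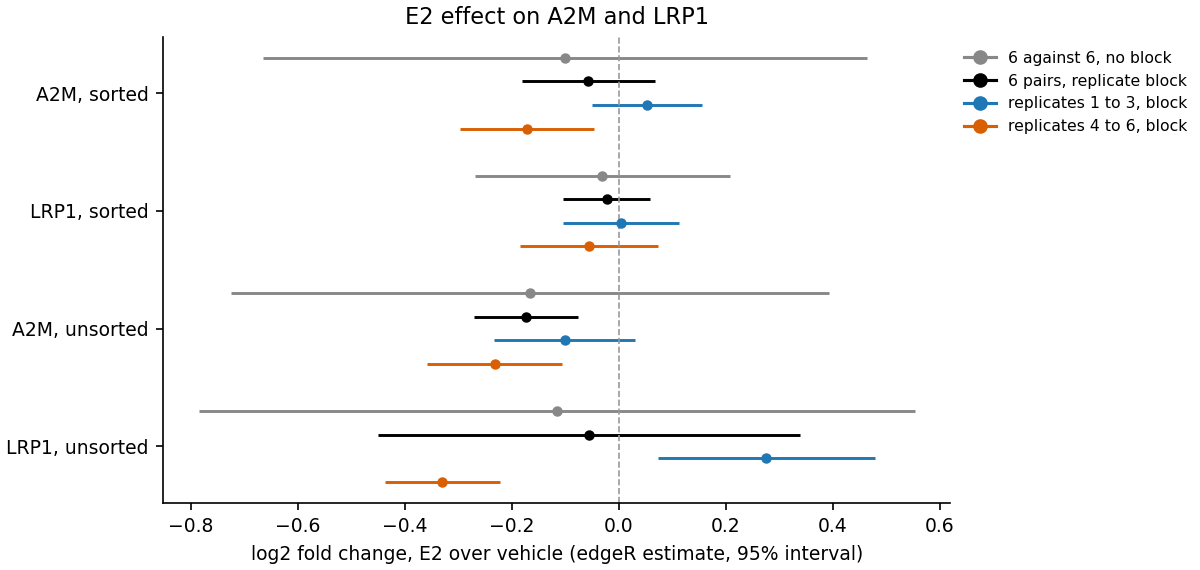
E2 over vehicle log2 fold changes of A2M and LRP1 from edgeR, with 95% intervals, in sorted and unsorted cells: 6 against 6 libraries, 6 pairs with the replicate block, and the block within replicates 1 to 3 or 4 to 6. The blocked interval of A2M in unsorted cells (-0.27 to -0.08) lies below 0, and LRP1 in unsorted cells is above 0 in replicates 1 to 3 (0.28) and below it in replicates 4 to 6 (-0.33).

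No difference in the E2 effect between the preparations was called for either gene. The effect in sorted minus that in unsorted cells was 0.06 ± 0.39 log2 for A2M and 0.08 ± 0.35 for LRP1 (SE; edgeR adjusted p = 1 for both), in a test over all 24 libraries that called 0.0264% of genes. The 95% intervals were -0.75 to 0.88 and -0.64 to 0.81. With the replicate block they were -0.348 to 0.543 and -0.635 to 0.701. That block gave each number the same term in both preparations, so it did not pair E2 with vehicle within a preparation. Its SE for A2M was 0.213, against 0.057 and 0.047 in the separate blocked fits of sorted and unsorted cells. A fit paired within each preparation was not run for this difference. All these intervals include differences as large as the E2 fold changes above, so these fits could have missed such a difference. The E2 and sort comparisons share their libraries and are not independent of each other. Exact permutation tests of log2 CPM over the 924 ways of dividing the 12 libraries gave 2-sided p = 0.853 (A2M) and 0.84 (LRP1) in sorted cells and 0.561 and 0.929 in unsorted cells, all 0.929 after adjustment over the 4. In the authors' deposited table A2M changed by -0.08 in sorted and -0.18 in unsorted cells under E2, and LRP1 by -0.02 and -0.12, all with an adjusted p of 1.

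**Figure D3:**
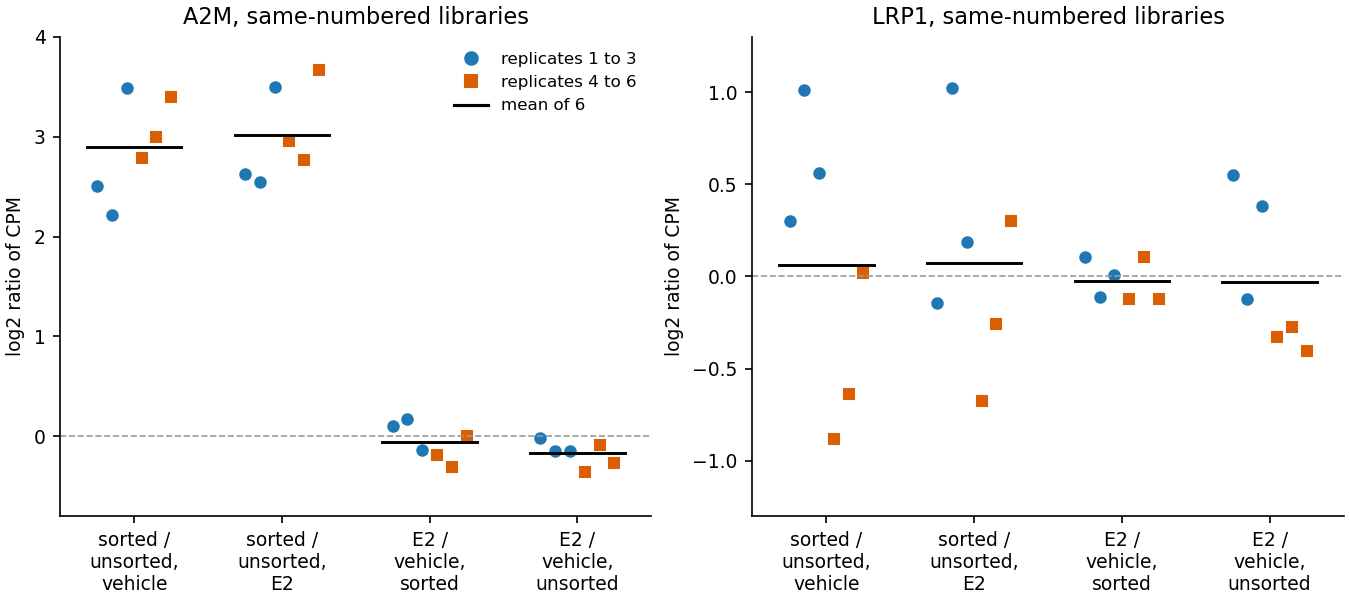
Log2 ratios of CPM between libraries of the same number for A2M (left) and LRP1 (right) in the 4 comparisons; circles are replicates 1 to 3, squares are replicates 4 to 6 and bars are means of the 6 ratios. A2M ratios run from 2.22 to 3.67 in the sort comparisons and from -0.36 to 0.18 under E2, while LRP1 ratios scatter on either side of 0.

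The surrounding pathway was followed through 8 gene lists, with 118 other genes tested in the sort comparison of vehicle libraries. Of these, 21 were higher and 49 lower in sorted cells (59.3% called, against 50.2% of all genes), and their median log2 fold change was -0.26 against 0.02 over all genes. Every count per list below stands against 24.4% of all genes called higher and 25.8% called lower. With the replicate block 84 were called, where 63.6% of all genes were (32.5% higher and 31.1% lower). The lists were drawn up with earlier results of these data known, and nothing particular to them is read from these shares.

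A2M's own relatives did not share its direction. Of 4 tested members of its family 0 were higher and 2 lower, with a median of -1.32 log2. CD109, a membrane-anchored thioester protein that binds transforming growth factor beta, averaged 82.5 ± 20.8 CPM (SD, n = 6) in sorted vehicle libraries against 338 ± 101 CPM unsorted, a fold change of -2.04 ± 0.23 log2 (SE; edgeR adjusted p = 6.42e-06). A2ML1, an epidermal protease inhibitor of the same fold, was near the lower limit of the counts at 0.883 and 3.32 CPM (-1.90 ± 0.33 log2, edgeR adjusted p = 0.000283). CPAMD8 was not called without the block (-0.74 ± 0.34 log2, edgeR adjusted p = 0.0878) and was lower with it (-0.81 ± 0.27, adjusted p = 0.0226), which made 3 of 4 lower. Complement C5 was called by neither (-0.03 log2 without the block). PZP, C3, C4A and OVOS2 match no feature by name and were not analysed. The RefSeq gene table of assembly ARS-UI_Ramb_v3.0 places 2 protein-coding loci without a symbol between A2M and its nearest named neighbour on one side, M6PR. Whether reads were shared between A2M and a near-identical copy was not tested.

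Receptors of the LDL receptor family were mixed, with 4 of 13 higher, 3 lower and a median of 0.07 log2. SORL1, a sorting receptor, averaged 115 ± 44.1 CPM (SD, n = 6) in sorted against 25.9 ± 4.39 CPM in unsorted vehicle libraries, 2.15 ± 0.23 log2 higher (SE; edgeR adjusted p = 3.88e-06). LRP12 was also higher (0.68 ± 0.12 log2). LDLRAD3 (-2.44 ± 0.18) and LRP4, a receptor for agrin (-1.17 ± 0.20), were lower. With the block 6 members were higher and 5 lower.

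Of 23 genes that fold, cut or act downstream of LRP1, 4 were higher and 13 lower in sorted cells (median -0.37 log2), and 4 and 15 with the block. The chaperone LRPAP1 was not called, at 166 ± 43.0 CPM (SD, n = 6) sorted against 152 ± 33.9 CPM unsorted (0.12 ± 0.17 log2, edgeR adjusted p = 0.576). The cytoplasmic adaptors DAB2 (-2.79 ± 0.27 log2), DAB1 (-2.39 ± 0.31) and SHC1 (-1.39 ± 0.14) were lower. MAPK8IP2, a scaffold of the JNK pathway, was higher (1.18 ± 0.15 log2).

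Of 20 other LRP1 ligands 1 was higher and 11 lower (median -1.47 log2), and 2 and 13 with the block. FN1, which encodes the matrix protein fibronectin, averaged 2306 ± 427 CPM (SD, n = 6) sorted against 16140 ± 4137 CPM unsorted (-2.81 ± 0.19 log2, edgeR adjusted p = 8.81e-08). The matrix glycoprotein THBS1 (-2.11 log2) and the urokinase receptor PLAUR (-2.14 log2) were lower too.

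Of 14 proteases that A2M can trap 1 was higher and 10 lower in sorted cells (median -1.33 log2; 1 and 10 with the block), including ADAMTS7 (-2.70), the urokinase gene PLAU (-2.35) and the gelatinase gene MMP2 (-2.21). The exception was the interstitial collagenase MMP1, at 115 ± 39.4 CPM (SD, n = 6) sorted against 27.5 ± 7.39 CPM unsorted (2.05 ± 0.23 log2, edgeR adjusted p = 7.49e-06). Of 12 growth factors and cytokines that A2M can bind 1 was higher and 7 lower (median -2.05 log2), and 1 and 9 with the block. All 3 transforming growth factor beta genes were lower: TGFB1 (-1.98), TGFB2 (-2.38) and TGFB3 (-3.42). INHBA, the activin beta A subunit, was lower as well (-2.49 ± 0.17 log2, SE; edgeR adjusted p = 1.05e-07). These lower levels stood beside the lower fibroblast and pericyte marker level in sorted libraries given above, whose part in them was not tested.

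Other protease inhibitors did not share one direction, with 8 of 27 higher and 5 lower (median 0.03 log2), and 8 and 7 with the block. SERPINI1, or neuroserpin, was 1.25 ± 0.11 log2 higher (SE; edgeR adjusted p = 7.93e-07). SERPINH1, the collagen chaperone (-2.18), and TIMP3 (-1.78), a matrix-bound metalloproteinase inhibitor, were lower. TIMP1, named after its values were seen, averaged 1909 ± 802 CPM (SD, n = 6) sorted against 622 ± 227 CPM unsorted. Interleukin-6-type cytokines and glucocorticoids are known inducers of A2M in rat liver, and of 15 genes of those signalling routes 3 were higher and 3 lower in sorted cells (median 0.05 log2), and 5 and 3 with the block. The cytokine LIF (-2.96) and the oncostatin M receptor OSMR (-1.72) were lower, while IL11RA (0.89) and the glucocorticoid receptor NR3C1 (0.49) were higher. STAT3, the transcription factor of that route, was not called by edgeR without the block (0.40 ± 0.16 log2, adjusted p = 0.0531). It was called higher with the block (0.38 ± 0.09, edgeR adjusted p = 0.00284) and by DESeq2.

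**Figure D4:**
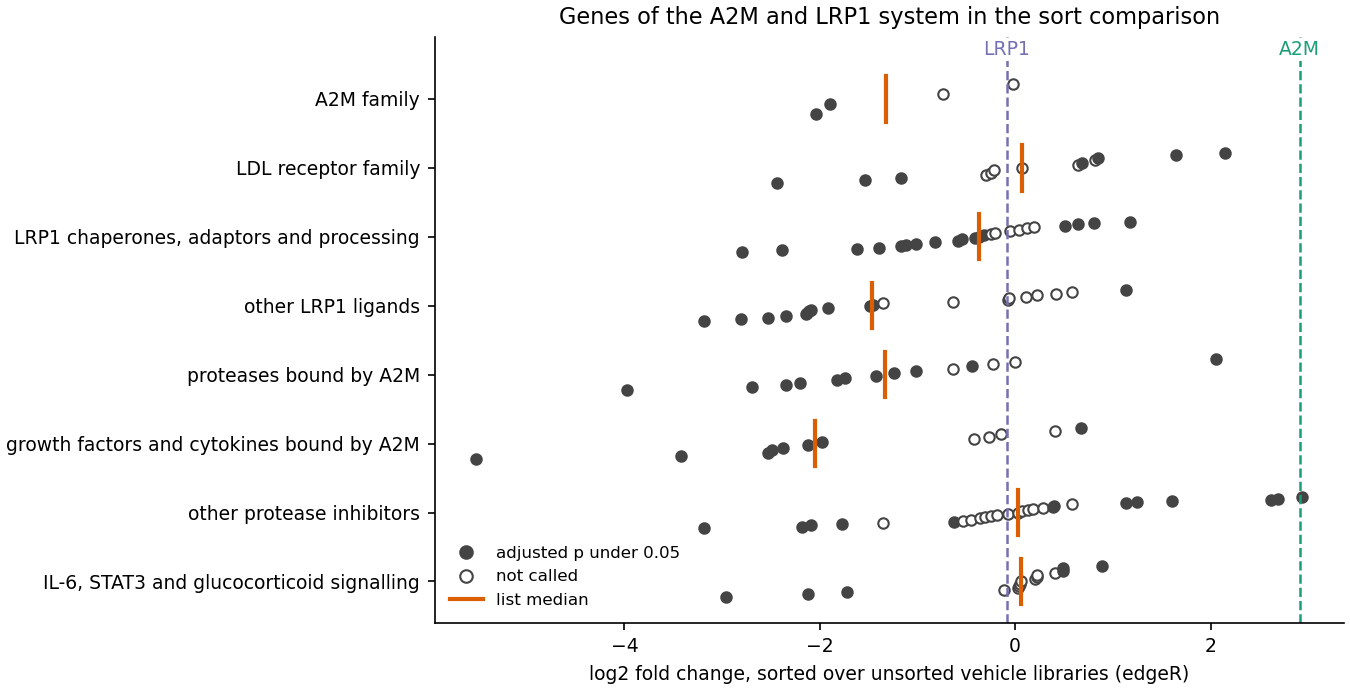
Log2 fold changes of sorted over unsorted vehicle libraries for the tested genes of the 8 lists, 1 point per gene, filled where edgeR's adjusted p was under 0.05; orange bars are list medians and dashed lines mark A2M (2.91) and LRP1 (-0.08). Ligands, proteases and growth factors lie mostly to the left of 0, with medians of -1.47, -1.33 and -2.05, and 1 gene, the inhibitor SERPINA12 (2.94, named after its values were seen), lies to the right of A2M.

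Under E2 few of these genes changed without the block. In sorted cells 1 of 114 was called (0.877%, against 1.37% of all genes), and 6 of the genes had an unadjusted p under 0.05. The called gene, VEGFA, the vascular growth factor, rose from 24.4 ± 7.04 CPM (SD, n = 6) to 70.3 ± 13.6 CPM, by 1.53 ± 0.18 log2 (SE; edgeR adjusted p = 0.000831). DESeq2 called 3, VEGFA, NR3C1 and LRP6, and 2.86% of all genes. With the block 16 were called (14%, against 13.2% of all genes), 10 higher and 6 lower (7.03% and 6.2% of all genes). Among these STAT3 fell by 0.35 ± 0.03 log2 (SE; edgeR adjusted p = 4.98e-07), and NR3C1 rose by 0.35 ± 0.05. FKBP5, a glucocorticoid-induced chaperone, fell by 0.30, LRP12 fell by 0.39 and LRP6 fell by 0.24 log2. The inhibitor SERPINB1 rose by 0.34 and the protease BMP1 rose by 0.24 log2.

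In unsorted cells edgeR called 0 of 120 list genes (0.245% of all genes), with 0 at an unadjusted p under 0.05, and DESeq2 called 0 (0.823% of all genes). With the block edgeR called 9 (7.5%, against 5.24% of all genes), 6 higher and 3 lower. LRP3, an LDL receptor family member, fell by 0.56 ± 0.09 log2 (SE; edgeR adjusted p = 0.000204), and CNTFR, a cytokine receptor subunit, fell by 0.30. MMP1 rose by 0.27, SERPINB1 by 0.23 and NR3C1 by 0.16 log2. In the test of the difference between preparations edgeR called 0 of 120 genes (0.0264% of all genes), with 3 at an unadjusted p under 0.05. DESeq2 (0.112% of all genes called) and the blocked fit (0.463%) each called 1, VEGFA, whose E2 effect was 1.17 ± 0.17 log2 larger in sorted cells (SE; edgeR adjusted p = 0.00189 with the block, 0.253 without it).

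The genes whose levels ran most like those of A2M were ranked by Pearson's r of log2 CPM among 9659 other genes with a mean of at least 5 CPM. Over the 24 libraries they were RELN (r = 0.987), DNER (0.987), GPRIN1 (0.981), NEFM (0.978) and EML1 (0.976). All 5 were higher in sorted vehicle libraries, RELN by 2.79 log2, so the sort weighs heavily in these values. With each group centred on its mean the nearest were NOS3 (0.918), DNER (0.916), OGDHL (0.916), STC1 (0.904) and TGM2 (0.903). DNER stood in both lists. The libraries share depth sets and replicate numbers, and the correlations are a description with no test.

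LRP1 was ranked the same way. Over 24 libraries the nearest genes were PKIG (r = 0.812), RHOB (0.809), RREB1 (0.788), ZNHIT1 (0.787) and CFD (0.784), and with groups centred they were KMT2D (0.934), DYNC1H1 (0.933), TNRC6C (0.913), UBR4 (0.902) and PRR12 (0.892). In unsorted vehicle libraries KMT2D averaged 109 ± 9.34 CPM (SD, n = 3) in replicates 1 to 3 and 219 ± 30.3 CPM in replicates 4 to 6, and DYNC1H1 averaged 777 ± 44.4 and 1254 ± 238 CPM. Both sets of values were apart without overlap, as were those of LRP1. KMT2D and DYNC1H1 were picked for running like LRP1, so this restates that choice. Between these sets of unsorted vehicle libraries edgeR called 31.8% of all genes. A2M and LRP1 themselves ran only loosely together, with r = 0.188 over 24 libraries and 0.354 with groups centred.

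The RefSeq table, used for gene order only, gave the 3 nearest named genes on each side. None was adjacent to A2M: CD69, KLRF1 and KLRF2, with 5, 6 and 11 protein-coding genes between, were too low to be tested. On the other side, with 2, 3 and 4 genes between, M6PR (-0.60 log2) and A2ML1 (-1.90) were lower and PHC1 (0.44) was higher in sorted vehicle libraries. Around LRP1, with 0 to 2 genes between, STAT6 (-1.51) and NEMP1 (-0.90) were lower, STAC3 (1.14) was higher, and NXPH4, SHMT2 and NAB2 were not called.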

How the data were processed

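Deposited counts, whole reads per gene and library, were used as the authors gave them. The submitters' processing notes name featureCounts 1.5.1. No source used here names the aligner, genome build or strand option, so reads of antisense partners cannot be told apart. The deposited log2 fold changes and p-values of the authors' comparison tables (edgeR, per the file headers) were only set beside the fits. No sequences or coordinates are given.

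Each comparison was fitted over all genes with edgeR 4.0.16 in R 4.3.3 (TMM, filterByExpr, robust quasi-likelihood F-test, 2-sided), with Benjamini-Hochberg adjustment and a threshold of 0.05. The fits were checked on simulated data. Log2 CPM for ranking used a prior count of 2. Alternatives were DESeq2 1.42.0, no filter, other scalings, a replicate block, each depth set and leaving out 1 library. Intervals are 95% from the fit's SE and cover the spread between libraries. Depth was 4.19 to 37 M counts.

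Same-numbered libraries deviated together, in all 36 pairs of groups and numbers. After centring on group means r ran from 0.29 to 0.859, which still holds the difference between the depth sets. After centring on group and depth-set means r ran from 0.255 to 0.824. Blocked values are therefore given beside the members and the list counts where they change a call. That pairing comes from the counts, not from the labels.

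The members and lists were chosen with earlier results of these data known. Genes named are the members, up to 4 called genes per list and comparison by smallest p, the 5 most like each member, and fixed pituitary genes. Results for 1 gene are not reported here.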

Additional observations from a re-analysis of the deposited data

Results flagged for a closer look

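In sorted E2 libraries A2M in replicate 2 (2804 CPM) stood apart from the other 5 (5180 to 7175 CPM), with a gap of 0.653 of the group's range on the log2 scale against a critical value of 0.625. About 1 group in 20 is picked out this way by chance. Sorted vehicle replicate 2 was also the lowest of its group, at 2480 CPM. The sort difference of LRP1 in vehicle libraries differed between replicates 4 to 6 and 1 to 3, by -1.22 log2 without and -1.17 log2 with the replicate block (edgeR adjusted p = 0.019 and 0.0186). That test was added after the values were seen. Without the block, leaving out 1 library at a time moved its edgeR adjusted p between 0.00347 and 0.0577.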

How the results depend on the processing

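The sort fold change of A2M lay between 2.74 and 3.04 log2 in vehicle libraries under 7 alternatives and between 2.77 and 3.09 with 1 library left out; under E2 the ranges were 2.90 to 3.09 and 2.87 to 3.13. That of LRP1 ran from -0.52 to 0.63 and, with 1 library left out, from -0.22 to 0.18, and under E2 from -0.25 to 0.36 and from -0.12 to 0.17. The number of genes called for E2 in sorted cells was 196 in the main design, 402 with DESeq2, 1896 with the replicate block, 563 in replicates 1 to 3 and 1277 in replicates 4 to 6, and 125 to 208 with 1 library left out. In unsorted cells it was 37, then 124, 790, 67 and 730, and 11 to 48. For the difference in E2 effect it was 4, then 17, 70, 2 and 47, with 0 without the filter and 0 to 4 with 1 library left out. The sort comparisons called 6170 to 7368 genes in vehicle and 6398 to 7618 in E2 libraries with 1 library left out. In sorted cells the E2 fold change of A2M turned to 0.053 in replicates 1 to 3 and ran from -0.258 to 0.052 with 1 library left out, and that of LRP1 turned to 0.004 and ran from -0.087 to 0.04. In unsorted cells A2M was called with the replicate block (-0.17) and in replicates 4 to 6 (-0.23), with -0.33 to -0.02 when 1 library was left out. LRP1 turned to 0.28 in replicates 1 to 3, was called in replicates 4 to 6 (-0.33), and ran from -0.30 to 0.16. The difference in E2 effect ran from -0.10 to 0.23 for A2M and from -0.19 to 0.25 for LRP1 with 1 library left out, and LRP1 turned to -0.31 in replicates 1 to 3. The cause of these changes was not tested. With Spearman's rho 1 and 3 of the 5 genes most like A2M were shared, over 24 libraries and with groups centred, and 2 and 2 for LRP1. The block changed no other call of A2M or LRP1. Depth limits low genes such as A2ML1 in replicates 1 to 3.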
